A study of Zea mays with 2 samples.

Results

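The chloroplast-encoded loci of the 15 DAP (days after pollination) kernel libraries were taken as every listed position on the chloroplast sequence, with values at the same position summed within a library. There were 11 such loci among 34022 loci in all, with 9 listed in the ZmMADS47 RNAi library, 9 in WT and 7 in both. Each of them was below 1 FPKM in every library that listed it. FPKM (fragments per kilobase of exon per 1000000 fragments mapped) relates the fragments of a gene to its exon length and to the size of the library. The chloroplast loci together held 0.000175% of the summed FPKM in the RNAi library and 0.000194% in WT.

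The study compared pooled transgenic kernels of a ZmMADS47 knockdown with pooled non-transgenic kernels, 1 library per genotype, both at 15 DAP. According to the methods, both pools came from selfed plants heterozygous for the transgene of RNAi line 3, with lines backcrossed into the inbred W22. The hairpin RNA was driven by a γ-zein promoter chosen for expression in the endosperm, and whole kernels also hold other tissues. The source label names the kernel and the tissue label names the endosperm, and the nuclear positions have no gene names with which to check that label. The series text speaks of triplicates, but 1 file per genotype was analysed, so no difference below has a replicate check and no test between genotypes was made. The ZmMADS47 locus, the target of the hairpin, had 4.01 FPKM in the RNAi library and 8.79 FPKM in WT. The files give no read counts, so the depth of each library could not be computed from them. The paper gives only approximate read numbers, stated alike for each sample.

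The plastid keeps a small circular genome of its own. It encodes subunits of the photosystems, the cytochrome b6f complex, the ATP synthase and an NADH dehydrogenase-like complex, the large subunit of Rubisco, and part of the plastid's own ribosomes and RNA polymerase. Neighbouring genes are commonly transcribed together as operons and the joint transcripts are then cut and spliced. In starchy endosperm the plastids develop into amyloplasts, which store starch and do not photosynthesize. Plastid mRNAs are mostly without long poly(A) tails, and in plastids such tails mark an RNA for decay.

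Gene names were taken from the RefSeq plastid annotation that accompanies the maize assembly Zm-B73-REFERENCE-NAM-5.0, whereas the methods name AGPv2 for the alignment. Of the 11 loci, 10 have a start or an end equal to that of an annotated plastid gene, with 5 equal starts when the files' starts are raised by 1 base and 7 equal ends. Coordinates below are those of the files, with the start counted from 1. The locus with no equal boundary is the long one from psbK to psbZ. Genes lying wholly inside a locus, with 2 bases of tolerance, give it its name. The files do not say which of several genes in a locus a value belongs to.

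The genes inside listed loci were a minority of the plastid genome. Of 158 annotated plastid genes, 24 lay inside a locus listed in the RNAi library, 29 inside one listed in WT and 22 inside one listed in both. By type, 25 of 111 protein-coding genes, 6 of 38 tRNA genes and 0 of 8 rRNA genes were inside a locus of either library. All listed loci lay in one part of the circle, as 79 of the 158 annotated genes start beyond the last of them. The 12 protein-coding entries whose gene symbol occurs more than once in the annotation, such as ndhB and rps7 with a copy in each inverted repeat, were among the genes outside every listed locus. According to the methods only unique reads entered the FPKM values, and the part of that choice in this pattern was not tested.

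By function, the listed loci held genes of 11 of the 13 classes, and of the complexes with several plastid genes none was covered in full. For photosystem II, which splits water, 6 of 15 genes lay inside a locus listed in the RNAi library and 7 of 15 in WT. For photosystem I the numbers were 1 of 5 and 2 of 5, and for the cytochrome b6f complex, which carries electrons between the photosystems, 1 of 6 in each library. The ATP synthase had 2 of 6 in each. Proteins of the large ribosomal subunit had 0 of 9 in the RNAi library and 2 of 9 in WT, and those of the small subunit 2 of 12 and 4 of 12. The higher WT counts for photosystem I and both ribosomal subunits came from the locus from psaJ to clpP alone. That locus was listed only in WT, at 0.107 FPKM. Over all classes, 17 of 76 genes lay inside a locus listed in the RNAi library and 22 of 76 in WT. The plastid RNA polymerase had 2 of 4 in the RNAi library and 1 of 4 in WT. The NADH dehydrogenase-like complex had 0 of 11, and rbcL, the gene of the Rubisco large subunit, was outside as well. The photosystem I reaction centre genes psaA and psaB and the ATP synthase genes atpA and atpB were also outside. As several genes can share 1 listed value, these counts are of genes inside loci, and are not counts of genes measured separately.

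**Figure D1:**
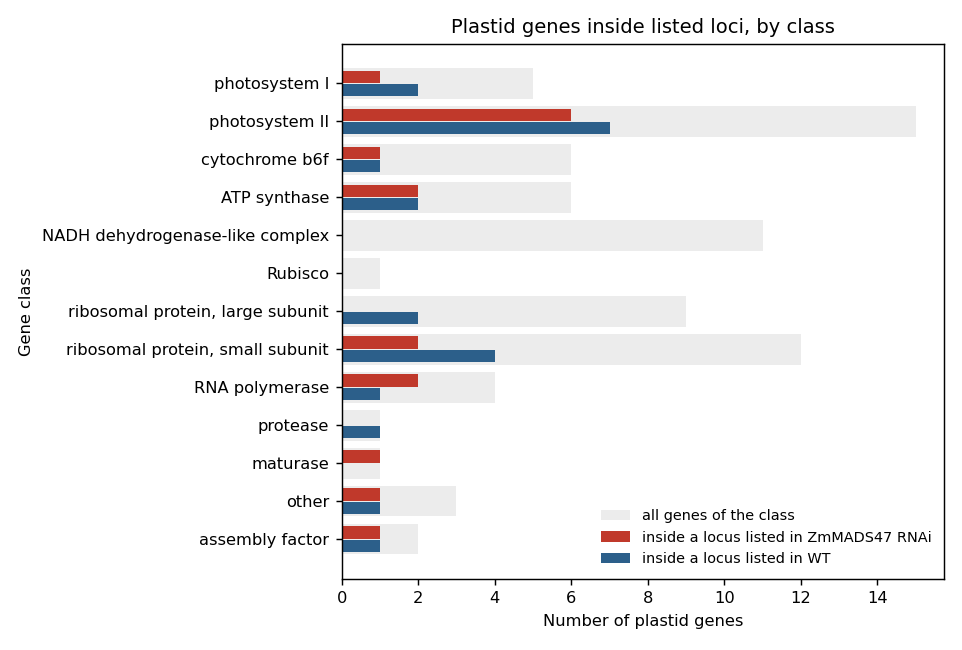
Number of plastid genes per functional class that lie inside a locus listed in the ZmMADS47 RNAi library (red) or the WT library (blue), over the number of genes in the class (grey). Photosystem II reached 6 and 7 of 15 genes, and the NADH dehydrogenase-like complex 0 of 11.

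The rps16 locus, from base 3363 to 5604, holds the gene of a protein of the small ribosomal subunit and part of trnK, a tRNA gene. It had 0.251 FPKM in the RNAi library and 0.348 FPKM in WT, a ratio of 0.721. Its level was thus lower in the RNAi library, within the fold limits of 0.71 and 1.4 that the study used.

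Genes of the plastid's own RNA polymerase were listed at 2 loci. The rpoA locus, which holds the gene of the α subunit and part of petD, runs from base 75428 to 77189. It had 0.0965 FPKM in the RNAi library and 0.135 FPKM in WT, and its ratio of 0.716 was just inside the lower limit. The rpoB locus, which holds the gene of the β subunit, runs from base 21468 to 24695. It had 0.0392 FPKM in the RNAi library and was not listed in WT. That value was the lowest of the chloroplast loci, with 0.107% of the listed nuclear loci below it.

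Photosystem genes were listed at 5 loci, some shared with other genes. The psbB locus, with the gene of a core antenna protein of photosystem II, runs from base 70706 to 72490 and overlaps part of psbT. It had 0.0855 FPKM in the RNAi library and 0.111 FPKM in WT, a ratio of 0.768. The longest locus, from base 6392 to 15097, spans 8706 bp and holds psbK, psbI, psbD, psbC and psbZ, the open reading frame ZemaCp010 and 6 tRNA genes. PsbD encodes a reaction centre protein of photosystem II and psbC an antenna protein. This locus carries 2 values per library, 0.0227 and 0.0648 FPKM in the RNAi library and 0.0638 and 0.0899 FPKM in WT. The files do not tie either value to a gene. Their sums were 0.0876 FPKM in the RNAi library and 0.154 FPKM in WT, and the ratio of 0.570 was the lowest of the 7. The psbA locus, from base 75 to 1150, holds the gene of the other reaction centre protein of photosystem II, whose mRNA is among the most abundant in green leaves. It was not listed in the RNAi library and had 0.269 FPKM in WT.

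The locus from psaI to petA was the exception in direction. It runs from base 59194 to 62447 and holds psaI, a small photosystem I subunit, ycf4, a photosystem I assembly factor, cemA, an envelope membrane protein, and petA, the gene of cytochrome f. It had 0.311 FPKM in the RNAi library and 0.127 FPKM in WT, a ratio of 2.46 and the only one of the 7 above 1. The remaining photosystem locus, from base 66312 to 70204, runs from psaJ over rpl33, rps18, rpl20 and rps12 to clpP. It thus joins a photosystem I subunit, ribosomal proteins and the catalytic subunit of the Clp protease. It was not listed in the RNAi library and had 0.107 FPKM in WT.

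The ATP synthase was represented by the locus of atpI and atpH, which encode membrane subunits of the enzyme, from base 32820 to 34639. It had 0.170 FPKM in the RNAi library and 0.245 FPKM in WT, and its ratio of 0.692 was just outside the lower limit. The matK locus, from base 1674 to 3308, holds the gene of an intron maturase that lies within the intron of trnK. It had 0.107 FPKM in the RNAi library and was not listed in WT.

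**Figure D2:**
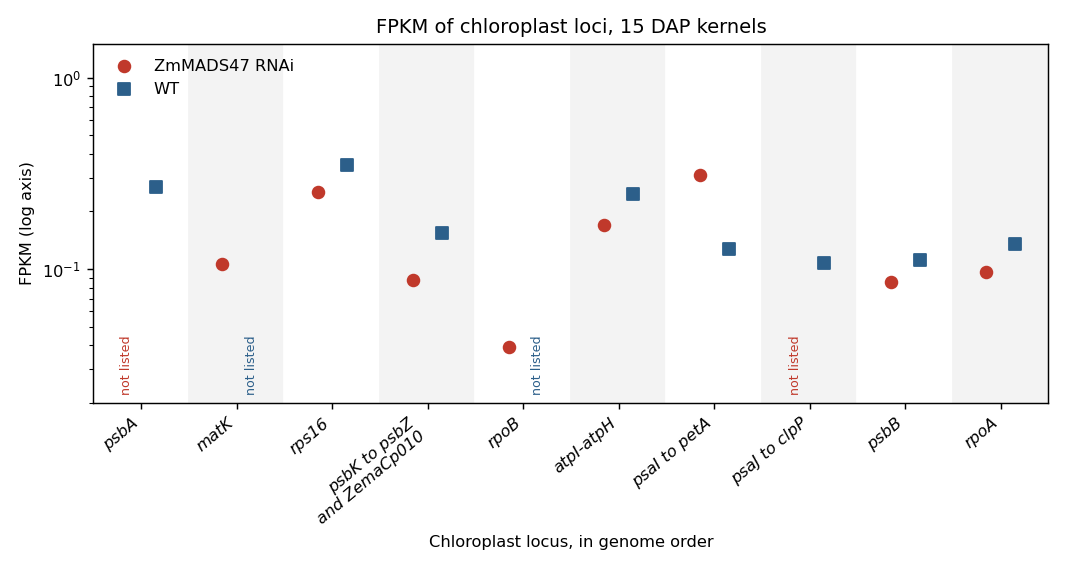
FPKM (log axis) of 10 chloroplast loci in genome order, with ZmMADS47 RNAi as red circles and WT as blue squares, 1 library each. The locus from psaI to petA is higher in RNAi at 0.311 FPKM against 0.127 FPKM in WT, and 4 loci have a value in a single library.

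In the RNAi library the 9 listed loci had a median of 0.107 FPKM, and in WT 0.154 FPKM. Listing in a single library was common at these levels. Of the 11 chloroplast loci, 4 were listed once, with matK and rpoB in the RNAi library and psbA and the locus from psaJ to clpP in WT. This is 36.4%, against 16.3% of all 34022 loci. Among 8309 nuclear loci whose highest listed FPKM lay in the chloroplast range, however, 49.3% were listed in a single library. The levels at which the 4 were listed lay between 0.0392 and 0.269 FPKM.

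FPKM multiplied by the span of a locus in kilobases gives an upper limit to its fragments per 1000000 mapped, because the exon length used in FPKM cannot exceed the span. The limits were 0.126 for rpoB, 0.153 for psbB, 0.170 for rpoA and 0.174 for matK in the RNAi library. In the WT library the lowest were 0.199 for psbB, 0.238 for rpoA and 0.289 for psbA. The highest were 1.01 for the locus from psaI to petA in the RNAi library and 1.34 for the locus from psbK to psbZ in WT. Summed over all chloroplast loci, the limit was 3.59 fragments per 1000000 in the RNAi library and 4.49 in WT. At the approximate read number that the paper states per sample, the lowest of these limits stand for very few fragments. The ratios of such loci therefore rest on few fragments.

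Some of these limits lay near the smallest that the files list for nuclear loci of like span, and others lay well above it. Nuclear loci with 1 value and a span within 10% of that of rpoB numbered 2492 in the RNAi library, and their lowest limit was 0.127, so that 0 of them were at or below rpoB. For psbB, 0.702% of 1995 such loci in the RNAi library and 1.46% of 2059 in WT were at or below it. For rpoA the shares were 1.32% of 1971 and 3.75% of 2028. For rps16 they were 13.6% of 2171 and 20.2% of 2234, the highest shares of the described loci in each library. The locus from psaI to petA had 12.3% of 2532 at or below it in the RNAi library and 3.95% of 2509 in WT, and that of atpI and atpH 8.99% of 2035 and 15.2% of 2092. For psbA the share was 9.57% of 1265 in WT. In each library the share was under 5% for 5 of the 8 described loci that were listed. These include the locus from psbK to psbZ, at 2.03% in the RNAi library and 3.37% in WT. Its limit sums 2 values, so the nuclear loci with 1 value are an unlike comparison for it. For nuclear genes with introns the span exceeds the exon length by more, which raises their limits relative to those of plastid genes. Over nuclear loci of 1000 to 2000 bp, the 1% quantile of the limit was 0.160 in the RNAi library and 0.188 in WT, a ratio of 0.851. The smallest listed values were thus themselves lower in the RNAi library, and their part in the ratios of the chloroplast loci was not tested.

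**Figure D3:**
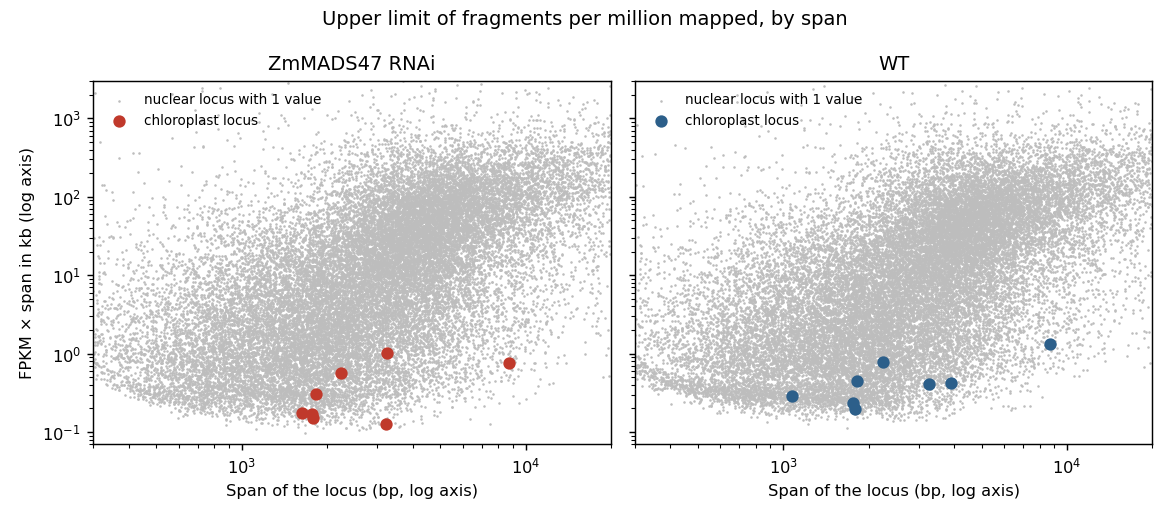
FPKM multiplied by span, an upper limit of fragments per 1000000 mapped, against the span of the locus (both axes log), for ZmMADS47 RNAi on the left and WT on the right. Chloroplast loci (coloured) lie in the lower part of the nuclear loci with 1 listed value (grey), from the lower edge with rpoB at 0.126 in the RNAi library to above it with rps16 at 0.564 in the RNAi library and 0.781 in WT.

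The question of a difference between genotypes was put to the ratios, at first for loci that reached 1 FPKM in either library. Under this minimum 0 chloroplast loci could be compared, while 23014 loci of the whole series passed, of which 17.0% were above 1.4 and 13.6% were below 0.71. With no minimum, 7 chloroplast loci had a ratio. Of these 1, the locus from psaI to petA, was above 1.4, against 19.1% of all 27552 loci compared. Below 0.71 were 2, the loci from psbK to psbZ and of atpI and atpH, against 15.8% of all. The other 4 lay between the limits. Among the 4652 nuclear loci of the same range of mean FPKM, 32.8% were above 1.4 and 29.8% below 0.71, against 14.3% and 28.6% of the 7 chloroplast loci.

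As a set, 6 of the 7 chloroplast loci had a lower FPKM in the RNAi library, against 44.2% of all loci compared. The share was 53.4% of the nuclear loci of the same range, a set not weighted to the levels of the 7. Most of the 7 had a mean from 0.1 to 0.3 FPKM, where the share was 58.7% of 1351 nuclear loci. Below a mean of 0.1 FPKM it was 72.9% of 140 nuclear loci. The chloroplast loci had a median ratio of 0.721 and a median log2 ratio of -0.47. The median log2 ratio was -0.05 over the nuclear loci of the same range and 0.06 over all loci. The quartiles were -0.51 and -0.29 for the 7 chloroplast loci and -0.77 and 0.74 for the nuclear loci of the same range. Nuclear loci below 0.1 FPKM had quartiles of -0.39 and 0.04, and those from 0.1 to 0.3 FPKM had -0.68 and 0.63. Quartiles of 7 values are a rough measure of spread. Below a mean of 1 FPKM the median ratios of nuclear loci were themselves under 1. They were 0.834 below 0.1 FPKM, 0.909 from 0.1 to 0.3 FPKM and 0.980 from 0.3 to 1 FPKM, against 1.05 from 1 to 10 FPKM. The chloroplast FPKM summed to 1.93 in the RNAi library and 2.40 in WT, a ratio of 0.804, and over all loci the ratio of the sums was 0.888. Over the 7 shared loci alone the chloroplast ratio was 0.882.

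Each ratio was also set against nuclear loci within 1.5 times its own mean FPKM. The ratio of the locus from psaI to petA was reached or passed by 8.60% of 1291 such loci. At the other end, the ratio of the locus from psbK to psbZ was at or above that of 20.0% of 580 loci. The ratios of rps16, rpoA, psbB and the locus of atpI and atpH stood at or above those of 21.4% to 30.5% of such loci. None of these 6 loci thus lay outside the range of nuclear loci at its level.

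The nuclear ratios at these levels did not form a single hump. In bins of 0.2 on the log2 scale, the counts peaked at -1.1 with 224 loci, at -0.3 with 489 and at 0.7 with 319. The peak at -1.1 stood little above its neighbouring bins, with 217 and 206 loci, so its position is not firm. Of the chloroplast loci, 2 fell in the bin of the middle peak and 3 in the bin next below it, while the locus from psbK to psbZ fell in the bin at -0.9 and that from psaI to petA in the bin at 1.3. The peaks at -0.3 and 0.7 lay 1.0 apart, where a step between 1 and 2 fragments is 1 on the log2 scale. Whether the peaks are steps of whole fragments was not tested.

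**Figure D4:**
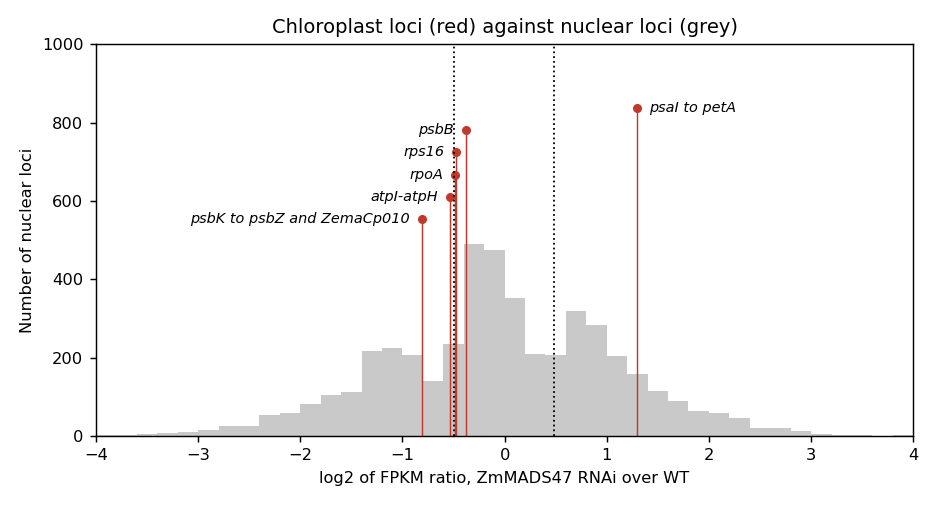
Distribution of the log2 FPKM ratio, ZmMADS47 RNAi over WT, for 4652 nuclear loci of the same mean FPKM range (grey, bins of 0.2), with 6 of the shared chloroplast loci as red markers whose heights only separate the names. Dotted lines mark the limits of 0.71 and 1.4, with the locus from psaI to petA beyond the upper one at a ratio of 2.46.

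The calls at the lower limit moved with the scaling of the libraries. Dividing by the median ratio of nuclear loci with at least 10 FPKM in both libraries placed 4 chloroplast loci below 0.71, as the ratios of rps16 and rpoA became 0.686 and 0.681. Scaling to the same total raised every log2 ratio by 0.17 and left 1 locus below, that from psbK to psbZ at 0.642. The locus from psaI to petA, at 2.46 before scaling, remained above 1.4 under both, at 2.34 and 2.77. Scalings of this size could not have moved it past that limit. With 1 FPKM added to each value, 0 loci were past either limit. For the described loci this outcome was fixed in advance. Their values are at most 0.348 FPKM, too small to give a ratio past a limit after that addition. Shares over all loci were not computed at these settings, so the counts show only how the calls moved.

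The other organelle genome was listed at higher levels. The mitochondrial sequence had 32 loci in the RNAi library and 35 in WT, with medians of 0.672 and 0.449 FPKM and summed FPKM of 73.3 and 46.0. The highest mitochondrial value was 29.1 FPKM in the RNAi library and 9.43 FPKM in WT. Of 22 mitochondrial loci compared, 9 (40.9%) were above 1.4 and 3 (13.6%) below 0.71, with a median log2 ratio of 0.23. The shares were 19.1% and 15.8% over all loci compared. Over nuclear loci with a mean of 0.3 to 1 FPKM they were 33.9% and 31.2%. The direction of the mitochondrial sum was opposite to that of the chloroplast loci. The highest mitochondrial locus, at 29.1 FPKM, made up a large part of the 73.3 FPKM in the RNAi library. FPKM multiplied by span summed to 82.4 over the mitochondrial loci in the RNAi library and 73.9 in WT. The difference between both organelles was not tested, as each ratio rests on the same 2 libraries.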

How the data were processed

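The authors deposited FPKM values, 1 file per genotype, with a position and no gene name, count or confidence limit, and with values above 0 only. According to the methods, reads were aligned with TopHat to AGPv2 and unique reads were normalized with Cufflinks. The submitters' processing notes name Bowtie 0.12.2. A read that matches several places, such as the inverted repeat or nuclear copies of plastid DNA, would not count as unique, which can lower plastid values. How far this applied here was not tested.

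Values at one position were summed and loci with an equal count of values were compared as RNAi over WT, without a pseudocount, at the limits 1.4 and 0.71. A minimum of 1 FPKM was set, and because no chloroplast locus reached it, the ratios shown use no minimum. All 11 loci fall under the rule for single loci. Of these 10 are described, and 1 is kept in the counts and sums but is not reported here for a reason outside the rule, nor is the planned setting that leaves it out. The rule takes the 10 highest mean FPKM, the 5 highest and 5 lowest ratios, and all photosystem, ATP synthase and RNA polymerase genes. Members, gene classes and rules were chosen with earlier results of these data known. Plastid gene names came from RefSeq by position, and all 76 genes of the classes matched. No sequence was used here. The counting steps were tested on simulated data. Python 3.11.15, pandas 2.3.3, numpy 2.4.6 and matplotlib 3.10.9 were used.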

Additional observations from a re-analysis of the deposited data

How the results depend on the processing

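With 1 library per genotype and no counts, no interval was available, so any change at 3 significant digits is given. At the minimum of 1 FPKM, 0 chloroplast loci were compared and 0 were past a limit. The planned scalings, minimum of 5, pseudocount, fold limit of 2, span and value-number settings likewise had 0 loci to compare. Their counts of 0 were thus fixed by the minimum. With no minimum, 1 was higher and 2 were lower, against 19.1% and 15.8% of all loci compared. Together with no minimum, and chosen after seeing the data, scaling by the median ratio gave 1 higher and 4 lower. In the same way equal totals gave 1 and 1, a fold limit of 2 gave 1 and 0, and a pseudocount of 1 gave 0 and 0. The values of the described loci are too low for any to pass a limit under that pseudocount. For these later settings the shares over all loci were not computed.

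The median log2 ratio over the 7 shared loci, -0.47, was -0.54 after scaling by the median ratio, -0.30 once both totals were made equal and -0.085 with a pseudocount of 1. The pseudocount exceeds every chloroplast value, so it shrinks this median by construction. Without the locus from psaI to petA, and with no pseudocount, the median log2 ratio was -0.48 (chosen after seeing the data). A minimum of 5 left no locus and gave no median. The ratio of summed FPKM, 0.804, was 0.765 under median scaling and 0.906 with equal totals. Over loci listed in both libraries it was 0.882 and without the locus from psaI to petA 0.712, both chosen after seeing the data. Every value stayed under 1.

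The share of summed FPKM was 0.000202% in RNAi and 0.000225% in WT among loci spanning at least 300 bp. Relative to loci under a mean of 1000 FPKM it was 0.000376% and 0.000483%. Beyond the construction of each setting, the cause of these shifts was not tested. No paired analysis was possible because there was 1 sample a group.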
